A study of Mus musculus with 8 samples.

Results

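The 76 genes described here encode the proteins of the mitochondrial ribosome, as far as they are named Mrpl or Mrps followed by a digit in the annotation of the array. Each had 1 row on the array, so the choice of the brightest row per gene changed nothing, and together they are 76 of 19505 named genes. The rule that picked them used gene symbols alone, but it was set with earlier results of these data known. By known role, 15 encode small-subunit proteins with a bacterial counterpart, 10 small-subunit proteins found only in mitochondria, 30 large-subunit proteins with a bacterial counterpart and 20 large-subunit proteins found only in mitochondria. The remaining gene, Mrps36, carries a ribosomal name but encodes an adaptor of the alpha-ketoglutarate dehydrogenase complex. Mrpl53 and Mrps6 were not analysed here, and Dap3, Ptcd3, Chchd1 and Gadd45gip1, which encode mitoribosomal proteins under other names, are described separately.

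Brain RNA of male ICR mice, an outbred strain, was hybridised to Clariom S arrays, which carry 1 probe set per transcript cluster. The mice were bought at 8 weeks of age, acclimatised for 1 week and treated for 7 days, with 7 mice assigned to each of 4 groups. Of the groups, 2 were given plain drinking water, either with or without the tail suspension test (TST), which scores how long a mouse hung by its tail stays immobile. The other groups were given rosemary extract (RE) by mouth, dissolved in drinking water, and underwent TST: low-dose RE at 10 mg/kg, and high-dose RE, given as 100 mg/kg in the titles and as 50 mg/kg in the source names. Every group had 2 arrays, called 1 and 2 below after their titles. Whether the duplicates are different mice or pooled RNA is not stated in the labels, and the p-values therefore cover the spread of these duplicates alone, which may be technical. Groups follow the titles; the agent field calls the water group without TST a positive control and the one with TST a negative control, and exchanging these groups would turn the sign of the TST effect and replace the control of both RE effects. The tissue is given as limbic system in one field and as hippocampus in another.

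Mitochondria keep a small genome whose messages encode core subunits of the respiratory chain and the ATP synthase. These messages are translated inside the organelle by its own ribosome, whose RNAs come from mitochondrial DNA and whose proteins are all encoded in the nucleus, made in the cytosol and imported. The large subunit joins amino acids and the small subunit reads the message. In neurons, which depend on oxidative phosphorylation, ribosomes inside mitochondria are needed to renew these subunits. What was measured here is the messages of the proteins, not ribosomes and not translation.

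Array medians lay between 7.45 and 7.51 on the deposited log2 scale. Water with TST 2 stood apart, with correlations of 0.967 to 0.978 with the other arrays. The 11 measured markers of cerebellar granule cells, of 12 listed, averaged 4.03 log2 units above their own means on that array and 2.24 above on water without TST 1, against -1.27 to -0.51 on the other arrays. Gabra6, a GABA receptor subunit of these cells, was at 16.37 on water with TST 2, 14.31 on water without TST 1 and 4.69 to 8.42 elsewhere. The 9 measured markers of forebrain excitatory neurons, of 10 listed, averaged 1.87 below their means on water with TST 2 (-1.8722). Nrgn was at 10.54 there against 14.11 to 15.37 elsewhere, but Neurod2 went the other way, at 9.38 against 7.12 to 8.95. Of 10 listed markers of neurons of the hippocampus, the labelled tissue of one field, the 9 measured averaged -0.78 there and -0.10 to 0.30 elsewhere. In that list Calb1 and Prox1 were instead highest on water with TST 2, at 15.2 and 11.24. The 7 measured markers of choroid plexus, of 8 listed, averaged -1.64 on water with TST 2. On water without TST 2, the 7 measured markers of striatal neurons, of 9 listed, averaged 1.89 above their means, against -1.16 on water with TST 2. Every result below that uses water with TST contains this array, and the part of the tissue markers in those results was not tested beyond the fits without these arrays. In such bulk RNA, fewer cells of a type and less RNA per cell cannot be told apart.

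The mitoribosomal genes varied little over the arrays. Their mean levels over the 8 arrays ran from 5.225 to 12.82, with a median of 9.59, and 67 of the 76 lay above the median of all deposited values. A level depends on the probes of its row, so levels of different genes are given only as measured and are not compared. At the upper end were Mrpl48 at 12.82, Mrps33 at 12.39, Mrpl27 at 12.11, Mrpl20 at 11.96 and Mrpl51 at 11.90, and at the lower end Mrpl36 at 5.225, Mrpl54 at 5.335, Mrpl14 at 6.63, Mrps15 at 6.66 and Mrpl22 at 6.72. Mrpl27, Mrpl48, Mrpl23 and Mrps36 have pseudogenes annotated under their names, so their values may be less certain. Whether the probes also read these pseudogenes was not tested. The standard deviation (SD) of a member over the 8 arrays had a median of 0.227. Named genes between the lowest and the highest member level, 14531 in number, had a median SD of 0.295. Low variation was not particular to the members. The median SD was 0.204 for nuclear-encoded oxidative phosphorylation subunits, 0.208 for cytosolic ribosomal proteins and 0.202 for genes of mitochondrial tRNA charging. It was higher for mitochondrial translation factors (0.269) and for assembly factors of the mitochondrial ribosome (0.267). An SD under 0.3 was found for 56 of the 76 members, against 51.6% of those genes, and an SD above 0.5 for 2 members, against 11.0%.

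The steadiest members were Mrpl36, Mrpl57 and Mrpl40, with SDs of 0.074, 0.097 and 0.103. Mrpl40, a large-subunit protein, was at 10.10 and 10.06 in water without TST, 10.05 and 10.01 in water with TST, 10.04 and 9.93 in low-dose RE, and 10.29 and 10.05 in high-dose RE. Its values thus spanned little on every array, including the arrays with high cerebellar markers. Mrpl36 had the lowest mean of all members, with values of 5.12 to 5.33. No detection call comes with the values, so whether its small SD describes a detected gene is not known. The most variable members were Mrpl20 (SD 0.932), Mrpl1 (0.556), Mrpl43 (0.476), Mrpl35 (0.432) and Mrpl41 (0.384), all of the large subunit. Leaving aside these few, the heat map of all members shows most genes close to their own mean.

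**Figure D1:**
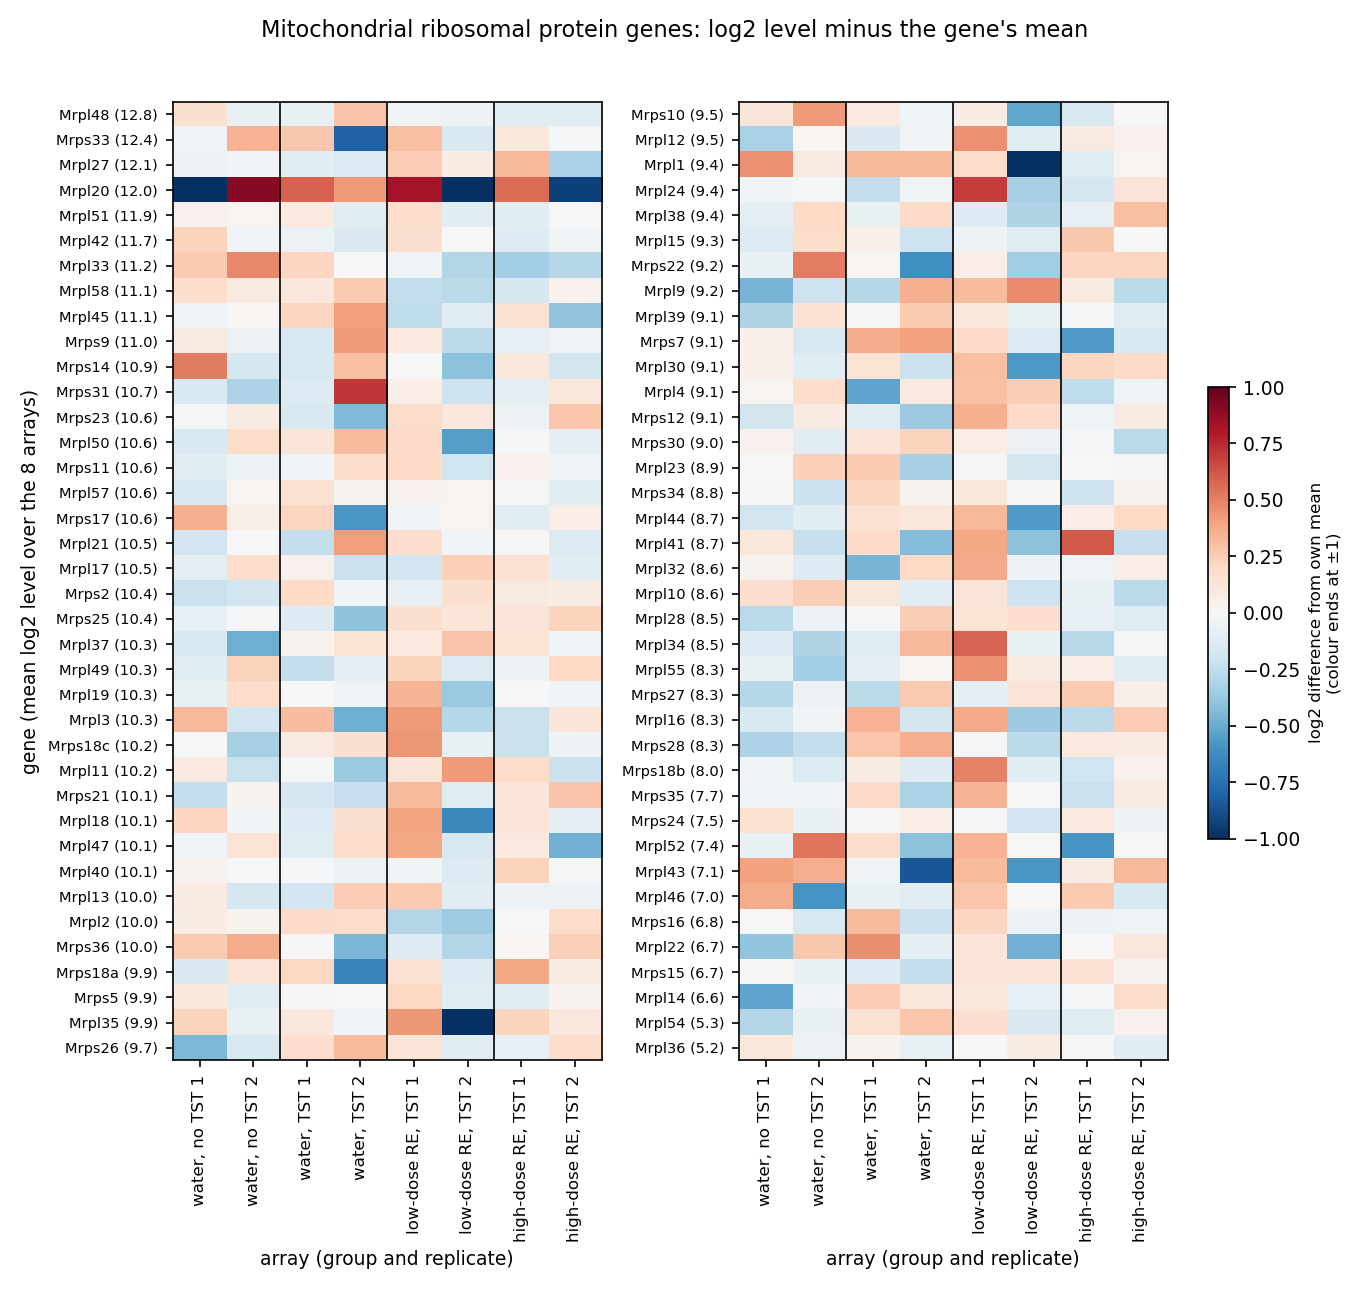
Each cell is the log2 level of 1 gene on 1 array minus that gene's mean over the 8 arrays, for the 76 mitochondrial ribosomal protein genes sorted by mean level (in parentheses), with black lines between groups and colours ending at 1 log2 unit either way. Mrpl20 is low on 3 arrays of 3 different groups, Mrpl1 and Mrpl35 are low on low-dose RE 2, and the column of low-dose RE 1 is mostly red.

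Across the 4 comparisons the members showed no common shift. A limma model with the 4 group means was fitted to all rows, and a gene was said to pass the study's threshold when its fold change exceeded 1.2 (0.263 on the log2 scale) at an unadjusted p under 0.05. With TST, in the water groups, 37 members were higher, 38 lower and 1 equal, with a median difference of -0.0025, and the median over all named genes was 0.010. For low-dose RE against the water group with TST, 40 were higher and 36 lower, with a median of 0.025 beside 0.010 for all named genes. For high-dose RE against the same water group, 32 were higher, 42 lower and 2 equal, with a median of -0.025 beside 0.005. Between the doses, 34 were higher with the high dose, 41 lower and 1 equal, with a median of -0.030 beside -0.005. With every array centred on its own median, the members' median turned to 0.0075 for TST and to -0.010 for low-dose RE, so neither has a direction. The first 3 comparisons share the water with TST arrays.

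In each of the first 3 comparisons 1 of the 76 members (1.32%) passed the study's threshold, and none did between the doses. The background, as the percentage of all 22206 rows that passed, was 2.55% for TST, 3.54% for low-dose RE, 3.17% for high-dose RE and 1.91% between doses. By direction, 1.29% of rows were higher and 1.26% lower with TST, 1.94% and 1.61% with low-dose RE, 1.67% and 1.51% with high-dose RE, and 0.946% and 0.968% with the high against the low dose. The members' count in either direction was 0 or 1 and their total share lay under the background in each comparison by limma. After Benjamini-Hochberg adjustment over all rows, 0 of the 22206 rows passed in any comparison by limma, while 567, 787, 705 and 425 had an unadjusted p under 0.05. The lowest adjusted p of a member was 0.997, 0.946, 0.973 and 1. In the F-test for any difference among the 4 groups, 0 members had an unadjusted p under 0.05, against 1.82% of all rows. The study's own test, a one-way analysis of variance, run on the arrays of the groups compared, put 2 members past the threshold for TST (Mrpl44 and Mrps28), 3 for low-dose RE (Mrpl2, Mrpl58 and Mrps15), 2 for high-dose RE (Mrpl1 and Mrps21) and 0 between doses, beside 2.72%, 2.19%, 2.92% and 2.52% of all rows under that test.

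The precision limits what could be seen. The standard error (SE) of a member's difference had a median of 0.260, and the 95% confidence interval reached 0.596 to either side at the median, from 0.488 for the most precisely measured member to 1.91 for Mrpl20. The interval lay within 1 log2 unit of 0 for 60, 56, 66 and 64 of the 76 members in the 4 comparisons. With this number of arrays, differences well under these half-widths were not detectable.

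**Figure D2:**
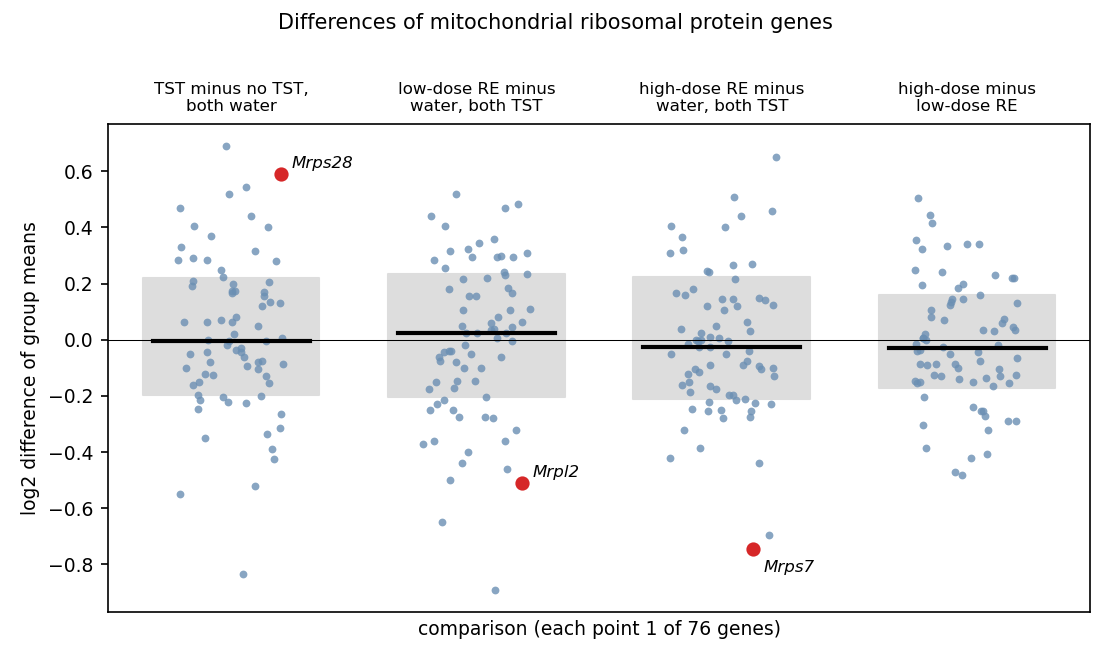
Each point is 1 of the 76 genes, placed by its log2 difference of group means in the comparison named above it; red points passed the study's threshold, the black line is the members' median and the grey box is the interquartile range of all named genes. The medians lie between -0.030 and 0.025, and the red points are Mrps28, Mrpl2 and Mrps7.

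Mrps28, a protein of the small subunit, was the member past the threshold for TST. It was at 7.97 and 8.04 in water without TST and at 8.55 and 8.64 in water with TST, then at 8.26 and 8.01 with low-dose RE and 8.37 and 8.36 with high-dose RE. Both TST arrays of the water group lay above all other arrays. The difference with TST was 0.59 (SE 0.219, 95% interval 0.09 to 1.09, limma unadjusted p = 0.0266, adjusted p = 0.997). Low-dose RE lay 0.46 below water with TST (-0.46, SE 0.219) and high-dose RE 0.23 below (-0.23, SE 0.219); neither passed the threshold, and both use the same control arrays as the TST difference. The TST difference missed the threshold without water without TST 1 (0.555), without water without TST 2 (0.625) and without water with TST 2 (0.545), and was 0.51 without both arrays with high cerebellar markers.

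Among the 15 small-subunit proteins with a bacterial counterpart, Mrps28 included, 7 were higher with TST, 7 lower and 1 equal. Mrps7, a protein of the small subunit's head, was at 9.16 and 8.95 without TST and 9.48 and 9.51 with TST, a difference of 0.44 (SE 0.252) that did not pass. Mrps10 was 0.245 lower with TST (-0.245, SE 0.272), with no overlap of the groups. Mrps12, the protein of the decoding centre, was at 8.88 and 9.15 without TST against 8.94 and 8.70 with it, and the groups overlapped. Mrps18c, the member of the Mrps18 trio with a bacterial counterpart in the small subunit, was 0.285 higher (SE 0.260).

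Small-subunit proteins found only in mitochondria divided evenly, 5 higher and 5 lower with TST. Mrps26 was at 9.21 and 9.51 without TST and 9.83 and 9.98 with it, a difference of 0.545 (SE 0.240, limma unadjusted p = 0.0516) just outside the threshold. Mrps31 was higher by 0.52 (SE 0.309), but this came from 11.45 on water with TST 2, since the other array of the group was at 10.60 and the arrays without TST at 10.58 and 10.43. Mrps23 was lower by 0.335 (-0.335, SE 0.238). Mrps34 was at 8.84 and 8.61 without and 9.04 and 8.86 with TST, and Mrps18b differed by 0.065 (SE 0.268). Mrps36, the enzyme adaptor, was at 10.23 and 10.34 without TST and at 9.96 and 9.51 with TST, a difference of -0.55 (SE 0.247, limma unadjusted p = 0.0552).

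In the large subunit 25 members were higher with TST and 25 lower, and none passed the threshold. Mrpl43, a protein found only in mitochondria, had the difference of greatest size among those whose groups did not overlap: it was at 7.47 and 7.43 without TST, 7.02 and 6.21 with TST, 7.38 and 6.48 with low-dose RE and 7.14 and 7.39 with high-dose RE. The TST difference was -0.835 (SE 0.368, 95% interval -1.68 to 0.01, limma unadjusted p = 0.052). It passed the threshold with the replicate number as a block (-0.835), without low-dose RE 1 or 2 (-0.835 in both fits) and without water with TST 1 (-1.24), and was -0.43 without water with TST 2. The lowest value of Mrpl43 was on water with TST 2 and the next on low-dose RE 2, so the low values belong to 1 array of each of 2 groups. Mrpl14 was at 6.11 and 6.59 without and 6.89 and 6.75 with TST (0.47, SE 0.251), and Mrpl33 was 0.265 lower (-0.265, SE 0.230). Mrpl44 and Mrpl45, which has a role in tethering the ribosome to the inner membrane, were higher by 0.28 (SE 0.306) and 0.33 (SE 0.255), with no overlap of the groups.

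Counted by overlap alone, 30 of the 76 members (39.5%) had TST groups that did not overlap, 18 higher and 12 lower, beside 27.5% of all rows. The count past the threshold moved with 1 array. Without water with TST 1, which leaves water with TST 2 as the only array of its group, 8 members passed the threshold for TST (Mrpl9, Mrpl43, Mrps17, Mrps22, Mrps28, Mrps31, Mrps33 and Mrps36), as did 16.7% of all rows. Without water with TST 2, the member that passed was Mrpl4. Mrps17, Mrps22 and Mrps33 were each lowest on water with TST 2, at 9.98, 8.61 and 11.58, against 10.46 to 10.92, 8.88 to 9.74 and 12.24 to 12.74 on the other 7 arrays. Water with TST 2 was the lowest array for 20 members (26.3%) and the highest for 15 (19.7%), beside 21.2% and 24.3% of all named genes.

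Mrpl2, a core large-subunit protein near the peptidyl transferase centre, was the member past the threshold for low-dose RE. It was at 10.17 and 10.15 in water with TST and at 9.68 and 9.62 with low-dose RE, against 10.05 and 10.01 in water without TST and 9.97 and 10.16 with high-dose RE. The low-dose arrays were thus the lowest of the 8, and the other 3 groups lay between 9.97 and 10.17. The difference was -0.51 (SE 0.214, 95% interval -1.002 to -0.02, limma unadjusted p = 0.0436, adjusted p = 0.946). High-dose RE differed from water with TST by -0.095 (SE 0.214) and from low-dose RE by 0.415 (SE 0.214, limma unadjusted p = 0.0878), so the difference between the doses was not past the threshold. The low-dose difference kept its size but missed the threshold in each of the 8 fits that left out 1 array (-0.54 to -0.48), with the replicate number as a block (-0.51) and in the fit of the 4 arrays compared (-0.51).

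Among other large-subunit members, Mrpl1, the protein of the mobile stalk beside the exit of the transfer RNA, differed by -0.89 with low-dose RE (SE 0.430). Its values were 9.88 and 9.51 without TST, 9.76 and 9.76 with TST, 9.61 and 8.13 with low-dose RE, and 9.30 and 9.45 with high-dose RE, so the difference came largely from low-dose RE 2. Without low-dose RE 1 it was -1.63 and passed. Mrpl58, a peptidyl-tRNA hydrolase that became part of the large subunit and frees stalled chains, was at 11.24 and 11.40 in water with TST and at 10.89 and 10.87 with low-dose RE, a difference of -0.44 (SE 0.219, limma unadjusted p = 0.0785). Mrpl45 was 0.50 below water with TST (-0.50, SE 0.255). On the other side, Mrpl4 was higher by 0.485 (SE 0.266) and Mrpl11, at the base of the stalk where translation factors bind, by 0.47 (SE 0.269). Of the 50 large-subunit members, 25 were higher and 25 lower with low-dose RE.

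In the small subunit 14 of 25 were higher with low-dose RE and 11 lower, and none passed. Mrps12 was at 8.94 and 8.70 in water with TST and at 9.42 and 9.26 with low-dose RE, a difference of 0.52 (SE 0.232, 95% interval -0.01 to 1.05, limma unadjusted p = 0.0543). The low-dose arrays were the highest of the 8 for this gene. Mrps23 and Mrps25, found only in mitochondria, were higher by 0.44 (SE 0.238) and 0.405 (SE 0.221). Mrps18a, which sits in the large subunit, and Mrps18b, both paralogues of Mrps18c, were higher by 0.24 (SE 0.323) and 0.22 (SE 0.268), and Mrps18c by 0.065 (SE 0.260), all with overlapping groups. Groups did not overlap for 23 of the 76 members (30.3%), 11 of them higher, beside 25% of all rows.

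Mrps7 was the member past the threshold for high-dose RE. It was at 9.48 and 9.51 in water with TST, 9.30 and 8.97 with low-dose RE, 8.54 and 8.96 with high-dose RE, and 9.16 and 8.95 in water without TST. High-dose RE 1 was the lowest of the 8 arrays, 0.41 below the next. The difference from water with TST was -0.745 (SE 0.252, 95% interval -1.32 to -0.17, limma unadjusted p = 0.0175, adjusted p = 0.973), that of the low dose from the same arrays -0.36 (SE 0.252), and that between the doses -0.385 (SE 0.252). The water with TST arrays were the highest 2 of the 8, so the RE differences also contain the height of their control. The high-dose difference was -0.535 without high-dose RE 1 and -0.73 without both arrays with high cerebellar markers, and missed the threshold in both fits. It also missed it in the analysis of variance (-0.745, unadjusted p = 0.0714 over the arrays compared).

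Of the other members in this comparison, Mrpl45 and Mrpl33 were lower with high-dose RE by 0.44 and 0.42 (-0.44, SE 0.255, and -0.42, SE 0.230). Mrpl33 was at 11.42 and 11.64 without TST, 11.37 and 11.16 with TST, 11.11 and 10.86 with low-dose RE and 10.82 and 10.87 with high-dose RE. Its groups did not overlap in any comparison with a water group, yet no contrast passed the threshold. Mrpl1 and Mrps30, a protein of the large subunit in spite of its name, were lower by 0.385 and 0.32 (-0.385, SE 0.430, and -0.32, SE 0.224). Mrpl43 was higher by 0.65 (SE 0.368), Mrps22 by 0.51 (SE 0.314), Mrps25 by 0.44 (SE 0.221), Mrps23 by 0.405 (SE 0.238) and Mrps21 by 0.40 (SE 0.247). Of small-subunit members 9 were higher and 16 lower, and of large-subunit members 22 were higher, 26 lower and 2 equal. Groups did not overlap for 24 of the 76 (31.6%), beside 30.5% of all rows.

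Between the doses no member passed the threshold. Positive differences without overlap of the groups numbered 8, the foremost being those of Mrpl2, given above, Mrps22 (0.355, SE 0.314), Mrps36 (0.34, SE 0.247), Mrpl38 (0.325, SE 0.251) and Mrps28 (0.23, SE 0.219). The negative ones numbered 9 and were led by Mrpl9 at -0.48 (SE 0.286), Mrpl4 at -0.42 (SE 0.266), Mrps7, Mrpl55 at -0.29 (SE 0.243) and Mrpl28 at -0.255 (SE 0.224). Groups did not overlap for 17 of the 76 (22.4%), beside 26.6% of all rows. Mrpl12, the stalk protein that also binds the mitochondrial RNA polymerase, was at 9.15 and 9.49 without TST, 9.33 and 9.45 with TST, 9.93 and 9.36 with low-dose RE, and 9.56 and 9.52 with high-dose RE. Its highest value was on low-dose RE 1, and no difference of Mrpl12 exceeded 0.255 in size.

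**Figure D3:**
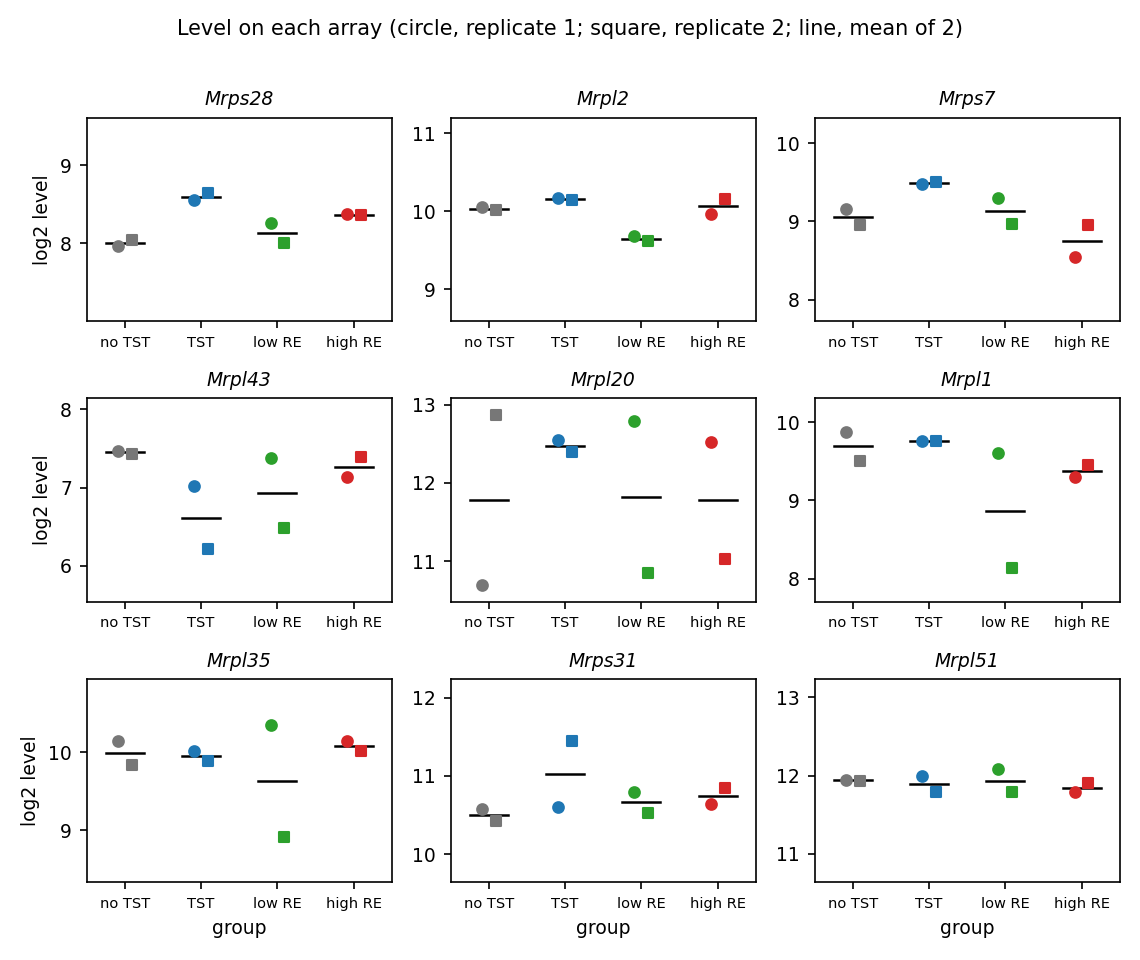
Log2 level of 9 genes on each array by group (circle, array 1; square, array 2; line, mean of 2), every panel spanning the same height; the genes were picked after their values were seen. Mrps28, Mrpl2 and Mrps7 are the members past the study's threshold, Mrpl20 is split within 3 of the 4 groups, and Mrpl51 is shown as a steady gene.

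A pattern shared by most members ran within a group. Low-dose RE 1 was above low-dose RE 2 for 66 of the 76 members, with a median difference of 0.285. In the other groups array 1 was above array 2 for 35, 42 and 36 members, with medians of -0.05 for water without TST, 0.04 for water with TST and -0.005 for high-dose RE. Each role took part: 13 of 15 and 9 of 10 in the small subunit, and 25 of 30 and 18 of 20 in the large subunit, with medians of 0.33, 0.25, 0.375 and 0.23. Low-dose RE 1 was the highest of the 8 arrays for 23 members (30.3%) and the lowest for 0, beside 12.7% and 13.1% of all named genes. Low-dose RE 2 was the lowest for 21 (27.6%) and the highest for 4 (5.3%), beside 15.8% and 17.8% of all named genes. Mrpl20, Mrpl1, Mrpl35, Mrpl18 and Mrpl24 differed by 1.94, 1.48, 1.43, 1.04 and 1.03 between these arrays, and at the other end Mrpl17 differed by -0.43 and Mrpl11 by -0.30.

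All named genes together showed little of this: low-dose RE 1 was higher for 51.4% of them, with a median of 0.02, and for 54.7% of the named genes in the members' level range, with a median of 0.06. Nuclear-encoded subunits of oxidative phosphorylation went the same way in 69 of 83 genes (median 0.22) and cytosolic ribosomal proteins in 38 of 52 (median 0.185). The spread of values over all rows was also widest on low-dose RE 1 (SD 3.06) and narrowest on low-dose RE 2 (SD 2.88). When the arrays were brought to 1 common distribution by quantile normalization, array 1 was above array 2 for 48 members (63.2%), with a median of 0.156. For named genes in the same level range this was 52.0% and 0.021. The related lists kept a like share, with smaller medians: 65.1% and 0.087 for oxidative phosphorylation subunits, and 61.5% and 0.043 for cytosolic ribosomal proteins. In water without TST the same step gave array 1 above array 2 for 31 members (40.8%), with a median of -0.0938. Named genes in the same level range gave 47.9% and -0.0175 there. After this step the members' median stayed highest on low-dose RE 1 (0.0942). It was lowest on water without TST 1 (-0.0372), close to low-dose RE 2 (-0.0359). Both low-dose RE arrays carry the same group label. Some lists of cell type markers also differed between them. The averages on arrays 1 and 2 were 0.05 and 0.94 for choroid plexus and -0.03 and -0.74 for striatal neurons. For thalamic neurons they were 0.86 and 0.36, for oligodendrocytes 0.35 and -0.20, and for astrocytes -0.06 and -0.51. Microglia markers averaged 0.31 and -0.22, and endothelial markers 0.11 and -0.20. Differences were smaller for forebrain excitatory neurons (0.56 and 0.28) and hippocampal neurons (0.30 and 0.28). The same held for cerebellar granule cells (-1.24 and -1.27) and meningeal fibroblasts (-0.43 and -0.33). Among astrocyte markers, Slc4a4 was at 12.17 and 9.65, Slc1a2 at 17.17 and 17.14, and Fgfr3 at 11.79 and 11.81. The part of these markers in the split was not tested. The median of the members for low-dose RE against water was -0.1325 without low-dose RE 1 and 0.175 without low-dose RE 2, beside 0.025 with both, and that between doses was 0.075 and -0.20, beside -0.030.

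**Figure D4:**
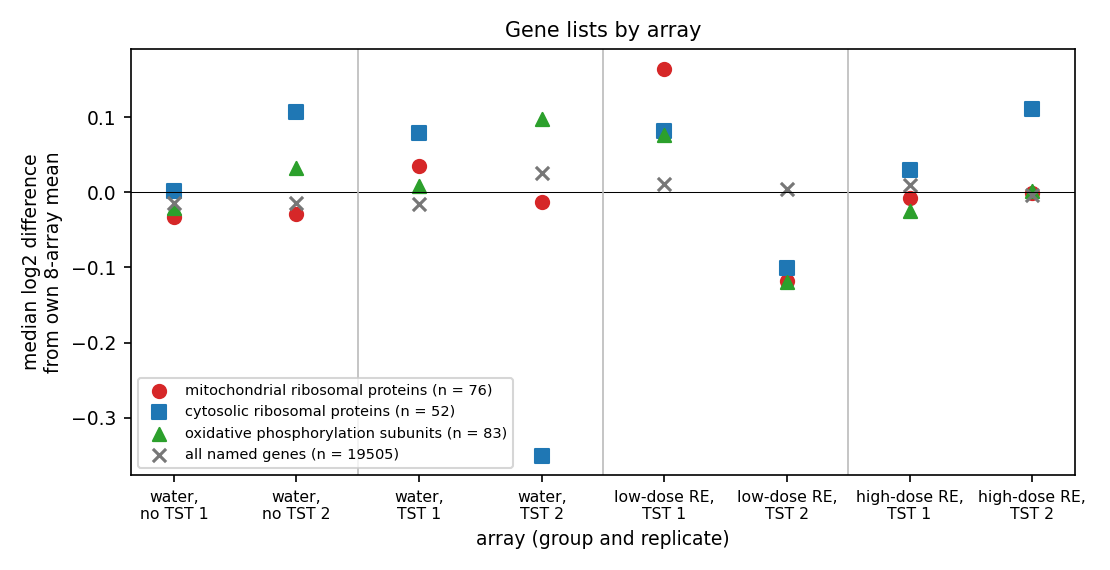
Median, over the genes of each list, of the log2 level minus the gene's mean over the 8 arrays, for each array and 4 lists (number of genes in the legend). On the deposited scale shown, mitochondrial ribosomal proteins are highest on low-dose RE 1 (0.165) and lowest on low-dose RE 2 (-0.118). Cytosolic ribosomal proteins are lowest on water with TST 2 (-0.351), where the mitochondrial ones are at -0.013.

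Mrpl20, a large-subunit protein with a bacterial counterpart, was at 1 of 2 levels on every array. It was at 10.69 and 12.87 in water without TST, 12.55 and 12.39 in water with TST, 12.79 and 10.85 with low-dose RE, and 12.52 and 11.03 with high-dose RE. Thus 3 arrays, 1 from each RE group and 1 of water without TST, lay between 10.69 and 11.03, and 5 between 12.39 and 12.87, with a gap of 1.36. The split does not follow the groups, and every contrast of Mrpl20 had an SE of 0.832. Among all 22206 rows, 1 row, that of Mrpl20, was lower on these 3 arrays than on the other 5 by more than 1 log2 unit, and 0 rows were higher by as much. Its neighbours in the gene table did not share it: Ccnl2, the next gene on one side, was at a mean of 11.45 on the 3 arrays and 11.39 on the 5, and Tmem88b, the nearest measured gene on the other side, at 10.57 and 10.91. Mrpl35, at 8.92 on low-dose RE 2 against 9.84 to 10.35 elsewhere, and Mrpl1 were low on 1 array alone.

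To show what else the members share, the RefSeq promoter table (GRCm38.p6, 250 bases before and 50 after each start) was searched on both strands; it held 67 of the 76 members. Members held 3 known activator motifs more often than the 15691 array genes with a promoter entry. The motif of NRF1, an activator of nuclear genes for mitochondria, spelled GCGCA, any base, then GCGC, was found in 13 of 67 (19.4%, against 7.63%), CCGGAAG, bound by ETS factors such as GABP, in 25 (37.31%, against 13.24%) and AAGATGGCG, bound by YY1, in 8 (11.94%, against 2.23%). Of the 67, 40 held at least 1 of the 3 motifs, 6 held 2 kinds (Mrpl17, Mrpl57, Mrps18a, Mrps21, Mrps26 and Mrps27) and 27 held none, and no matches of different motifs overlapped. The TATA box TATAAA was found in 7.46% (against 14.57%) and CCAAT in 38.81% (against 42.17%). The median number of CG dinucleotides was 21 in 300 bases, against 14. A match is a run of letters in this window and not a measured binding site.

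Mrpl12 is shown as a promoter with the NRF1 motif in the 250 bases before its start, printed on the plus strand (chr11:120484387-120484636). The capitals mark the match, which has the motif's spelling when read on the opposite strand.
Mrpl12: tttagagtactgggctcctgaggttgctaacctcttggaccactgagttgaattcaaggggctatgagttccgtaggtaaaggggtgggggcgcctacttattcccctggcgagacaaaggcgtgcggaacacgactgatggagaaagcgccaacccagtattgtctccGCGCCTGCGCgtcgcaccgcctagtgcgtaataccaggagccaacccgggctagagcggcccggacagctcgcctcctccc

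Many members are 1 of a pair of genes that start close together and run apart, so that both share the stretch between their starts. A partner on the opposite strand starting within 1000 bases was found for 26 of the 67 members (38.81%), against 13.84% of array genes. Partners of several kinds were found: Mrpl46 starts 42 bases from Mrps11, Mrps12 lies 147 bases from Sars2, the mitochondrial seryl-tRNA synthetase, Mrpl43 116 bases from Twnk, the helicase of mitochondrial DNA, Mrpl47 308 bases from Ndufb5, a subunit of complex I, and Mrpl49 192 bases from Fau, which encodes a cytosolic ribosomal protein. The shared stretches of the 2 members that passed the threshold in an RE comparison and have a partner, of Mrpl43 with its pair of ETS motifs in capitals, and of the pair of ribosomal genes are given below, read on the strand of the gene named first: Mrps7 with Gga3 (chr11:115603917-115604139, plus strand), Mrpl2 with Klc4 (chr17:46646081-46646220, plus strand), Mrpl43 with Twnk (chr19:45006443-45006557, minus strand) and Mrps11 with Mrpl46 (chr7:78783090-78783130, plus strand).
Mrps7 and Gga3: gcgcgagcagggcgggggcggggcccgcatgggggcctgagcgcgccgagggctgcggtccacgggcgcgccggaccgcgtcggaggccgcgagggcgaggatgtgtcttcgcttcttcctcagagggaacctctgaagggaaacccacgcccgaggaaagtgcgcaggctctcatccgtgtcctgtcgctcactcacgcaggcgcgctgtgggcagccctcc
Mrpl2 and Klc4: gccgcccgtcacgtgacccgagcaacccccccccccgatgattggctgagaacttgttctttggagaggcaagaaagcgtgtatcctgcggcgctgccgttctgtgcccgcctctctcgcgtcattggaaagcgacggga
Mrpl43 and Twnk: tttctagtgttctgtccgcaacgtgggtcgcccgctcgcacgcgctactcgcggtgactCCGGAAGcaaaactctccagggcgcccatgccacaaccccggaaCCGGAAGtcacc
Mrps11 and Mrpl46: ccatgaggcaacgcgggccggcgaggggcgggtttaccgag

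The partners' values were set beside the members'. Gga3, a Golgi sorting adaptor, differed with TST by 0.66 (SE 0.277, limma unadjusted p = 0.0432) beside 0.44 for Mrps7. Gga3 thus passed the study's threshold for TST, and Mrps7 did not. With high-dose RE, Gga3 differed by -0.24 (SE 0.277) beside -0.745 for Mrps7. Klc4, a kinesin light chain, differed with low-dose RE by -0.31 (SE 0.328) beside -0.51 for Mrpl2. Twnk differed with TST by 0.02 (SE 0.351) where Mrpl43 differed by -0.835, and Sars2 with low-dose RE by -0.21 (SE 0.253) where Mrps12 differed by 0.52. Mrps11 and Mrpl46, members both, differed with TST by 0.155 and 0.02. Ska3, the partner of Mrpl57 and at a mean level of 4.63, passed the threshold between the doses (0.95, SE 0.308, limma unadjusted p = 0.0144). Mrpl57 differed there by -0.10. The partners named here were picked after values were seen. The difference between a member and its partner was not tested.

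Calls among other genes of mitochondrial translation were few, and lists of this size cannot be compared by their calls. The list of 13 translation factors holds factors of initiation, elongation, release and recycling, and also Mtfmt, Taco1 and Oxa1l. Of these 13, 0 passed the study's threshold in any comparison by limma. Of all named genes 2.45%, 3.47%, 3.10% and 1.87% passed for TST, low dose, high dose and dose. The medians of the 13 factors, in that order, were 0.135, -0.065, -0.145 and -0.145. Of 21 measured genes of mitochondrial tRNA charging, which are synthetases and the amidotransferase subunits Qrsl1, Gatb and Gatc, 1 (4.76%) passed for TST, 1 for low-dose RE and 1 for high-dose RE, beside 2.45%, 3.47% and 3.10% of all named genes. Mars2, which charges methionine, was at 7.53 and 7.6 without TST and 8.39 and 8.43 with TST (0.845, SE 0.264, limma unadjusted p = 0.012), and at 8.19, 8.84, 8.33 and 8.25 on the RE arrays. Hars2, which charges histidine, was the gene past the threshold for both doses and was at 8.81 and 9.16 in water with TST against 8.29 and 8.50 with the low dose (-0.59, SE 0.243) and 8.57 and 8.27 with the high dose (-0.565, SE 0.243); these share their control, and the arrays without TST were at 8.48 and 8.47. The 4 mitoribosomal proteins with other symbols had 0 calls, with differences of 0.17 (Dap3), 0.33 (Ptcd3), 0.145 (Chchd1) and -0.22 (Gadd45gip1) for TST.

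Among 25 assembly factors of the mitochondrial ribosome, 3 passed for high-dose RE (12%) and 2 between doses (8%), beside the backgrounds of 3.17% and 1.91%. Fastkd2, an RNA-binding factor of the large subunit, was higher with the high dose (0.525, SE 0.218). Gtpbp10, a GTPase of large-subunit assembly, was lower against water (-0.645, SE 0.267) and against the low dose (-0.695, SE 0.267), with 9.24 and 9.33 in high-dose RE and 9.54 to 10.31 on the other arrays. Mettl17, a factor of small-subunit assembly, was lower with the high dose (-0.61, SE 0.243), and Mtg2, another GTPase of the large subunit, was higher with the high than with the low dose (0.54, SE 0.234). The calls thus ran both ways. The 13 genes of mitochondrial transcription and RNA stability had 0 calls, beside 2.45%, 3.47%, 3.10% and 1.87% of all named genes. The medians of these 13 were 0.005, -0.095, -0.20 and -0.075.

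Of 8 measured regulators of mitochondrial biogenesis, 7 were higher with TST and 1 equal, with a median of 0.2475, and this list was also highest on water with TST 2 (median 0.405 above own means). In this list 1 gene (12.5%) passed for TST, 1 for high-dose RE and 1 between doses, beside 2.45%, 3.10% and 1.87% of all named genes. Nrf1 passed for TST, at 8.46 and 8.04 without and 8.56 and 9.81 with TST (0.935, SE 0.394, limma unadjusted p = 0.0441), with the high value on water with TST 2 alone. Pprc1, a coactivator of Nrf1, was lower with the high dose against water (-0.945, SE 0.412) and against the low dose (-1.07, SE 0.412); its high-dose arrays were at 4.49 and 5.73. Ppargc1a, the best known coactivator of mitochondrial biogenesis, was at 12.99 to 13.43 on all arrays. Of 83 oxidative phosphorylation subunits 1 (1.20%) passed in each of those comparisons: Ndufa2 of complex I passed for TST (0.705, SE 0.262), and Cox4i2, an isoform of a cytochrome oxidase subunit, passed for the high dose (0.70, SE 0.272) and between doses (0.915, SE 0.272). Cytosolic ribosomal proteins had 0 calls of 52 in every comparison by limma, beside 2.45%, 3.47%, 3.10% and 1.87% of all named genes. Of the 52, 43 were lower with TST (median -0.1875), 38 higher with low-dose RE (0.135) and 46 higher with high-dose RE (0.215). The median of the 52 on water with TST 2, the array these comparisons share, was -0.351.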

How the data were processed

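The authors normalized the arrays with the robust multichip average in Transcriptome Analysis Console 4.0.1, per the series design text, and the deposited log2 values were used as given. They run from 2.76 to 19.79, and 1359 exceed 16, so the scale may be stretched; the sources used here do not name the array's genome build. No detection call comes with them, and precision is limited by the number of arrays. All 76 members matched the gene table by gene identifier. For all 22206 rows of the 8 arrays, the 4 group means were estimated with limma 3.58.1 in R 4.3.3 (lmFit and eBayes, 4 residual and 4.3 prior degrees of freedom, two-sided tests, Benjamini-Hochberg adjustment over all rows), and was tested on simulated data. Members, lists and rules were chosen with earlier results of these data known. Named genes were members past the study's threshold, the 5 most positive and 5 most negative differences without overlap in each comparison, the ends of level and SD, 11 genes reported whatever their values, and called genes of related lists; Mrps17, Mrps33, Mrpl18, Mrpl24, Mrpl17 and the promoter partners were added after values were seen. Same-numbered arrays of different groups did not deviate together (r -0.293 to 0.169), so no pairing was used. Alternatives were a replicate block, only the groups compared, a trend and robust prior, leaving out the dimmest 25% of rows, quantile or median normalization, the mean of a gene's rows, members with a role only, leaving out arrays, and the study's analysis of variance.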

Additional observations from a re-analysis of the deposited data

How the results depend on the processing

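With 2 arrays in a group, the counts of members past the study's threshold are 1 or 0 in each comparison, and those for TST and low-dose RE moved with more choices than that for high-dose RE. For TST the count of 1 became 2 with a replicate block, without the dimmest 25% of rows, with quantile normalization and with the analysis of variance, and 0 without both arrays with high cerebellar markers; leaving out 1 array gave 0 to 8, with medians of -0.01 to 0.05, against -0.0025 with all arrays. For low-dose RE it became 0 with the replicate block and with only the groups compared, 2 without the dimmest rows, 4 with quantile normalization and 3 with the analysis of variance; leaving out 1 array gave 0 to 4, with medians of -0.1325 to 0.175, among them -0.055 without water with TST 2. For high-dose RE it became 2 with the analysis of variance and 0 without both cerebellar-high arrays, and 1 to 6 with 1 array left out. Between doses, leaving out 1 array gave 0 to 4, with medians of -0.20 to 0.075, and the F-test gave 1 member (Mrpl33) with the trend and robust prior and 0 to 2 with 1 array left out. The cause was not tested; a group reduced to 1 array is assumed to vary like the others. The replicate block changed no other call than those of Mrpl43 and Mrpl2. Without water with TST 1 the counts were 8 for TST, 3 for low-dose RE and 6 for high-dose RE (of 76, a smaller share than the 16.7%, 17.0% and 17.0% of all rows that passed); without low-dose RE 1 they were 4 for low-dose RE, 4 between doses and 2 in the F-test, and without low-dose RE 2 they were 2 between doses. Without the dimmest rows 74 members were tested. Of the values of the 40 named single results under the settings run, 639 stayed on their side of the threshold, 23 came to pass it and 18 ceased to. The count of reversed directions was 0, but this was largely fixed in advance. These results were picked because their groups did not overlap, so leaving out arrays could not reverse them. Settings that change only the test or its spread leave the difference as it was. No member passed an adjusted threshold by limma under any setting; the lowest adjusted p was 0.1377 without water with TST 1 and 0.617 over the other settings.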
